A study of Mus musculus with 4 samples.

Results

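The genes described here are 9 members of the PARP family and Dtx3l, taken by name from a gene table of sorted fetal liver erythroid cells: Parp9, Dtx3l, Parp14, Parp10 and Parp12, which are known as interferon-induced genes, the DNA repair genes Parp1, Parp2 and Parp3, and Parp4 and Parp8. Of these 10 listed genes, 8 had a row among the 10716 genes of the table. Parp3 and Parp8 had none and are not analysed here. RNA came from C57BL/6 mouse embryos at day 14.5, from fetal liver cells sorted as positive for the R26eYFP reporter. The knockout-labelled libraries (replicates 1 and 2) carry Cre recombinase under Epor, the erythropoietin receptor gene, acting on Adar, and their genotype field reads Epor-Adar / +, leaving unsaid if 1 Adar allele or the pair was deleted. The control libraries (replicates 3 and 8) are labelled wild type, and the labels do not say which Cre or reporter alleles they carry beyond the sort for YFP that all 4 libraries share. The comparison asks how transcripts differ in erythroid cells when Adar, which encodes the RNA-editing enzyme ADAR1, is deleted. Values are CPM, counts per 1000000 counts of a library scaled by TMM (trimmed mean of M values).

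PARP enzymes move ADP-ribose from NAD onto proteins or nucleic acids. PARP1 and PARP2 sense DNA breaks and build chains of poly(ADP-ribose) that recruit repair factors, whereas PARP10, PARP12 and PARP14 attach single ADP-ribose units and belong to the antiviral response. PARP9 works in a complex with DTX3L, a ubiquitin ligase. In cells that lack ADAR1 editing, unedited double-stranded RNA is known to be sensed as foreign and to induce interferon-stimulated genes.

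Total counts per library ran from 28356401 to 44016809. Adar had 67.1 and 102 CPM in knockout-labelled libraries and 50.9 and 46.9 CPM in the controls, a gene-level value that also covers exons a conditional allele keeps and so does not test the deletion. For 3 of the 4 libraries, counts of Y-linked genes contradicted the labelled sex. Knockout-labelled replicate 1 (labelled female) had 382 CPM of Y-linked genes and replicate 2 (labelled male) had 0.0778 CPM. Control replicates 3 (labelled female) and 8 (labelled male) had 203 and 226 CPM. The cause of this mismatch was not tested. The erythroid markers were all measured (12 of 12), with a summed level of 72288 and 73977 CPM in knockout-labelled libraries and 104280 and 69303 CPM in the controls. Of these sums Hba-a1 alone gave 33348 and 31008 CPM against 43360 and 28231 CPM. Log2 fold changes of the 12 ran from -0.75 for Klf1 to 0.38 for Tfrc. Klf1 had 204 and 520 CPM against 689 and 533 CPM. The median difference of the 12 from the control mean was -0.41 in log2 CPM in replicate 1 and -0.076 in replicate 2. Knockout-labelled replicate 1 stood apart: of the 10716 genes, 8864 lay farther from the control mean there than in replicate 2. The labels do not say whether each library came from a separate embryo, so p-values measure the spread between these 4 libraries.

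The 5 interferon-linked genes were higher in each knockout-labelled library than in either control, by 2.66-fold for Parp10 to 17.1-fold for Parp12. Of all genes, 27.4% were likewise higher without overlap between the groups. The DNA repair genes Parp1 and Parp2 had fold changes of 0.763 and 1.02. No member passed an adjusted p of 0.05 over all genes in edgeR's quasi-likelihood test, which called 11 genes higher (0.103% of those tested) and 0 lower. Parp14 came nearest. With 1 library left out, between 1 and 5 of the interferon-linked genes passed, in fits that called from 0.233% to 17.3% of all genes higher. The interferon-linked genes took 58.9% (95% Wilson interval 58.1 to 59.6) and 43.5% (42.8 to 44.3) of the counts of the 8 measured members in knockout-labelled replicates 1 and 2. In control replicates 3 and 8 they took 14.8% (14.0 to 15.5) and 13.4% (12.9 to 13.9). That share does not depend on library scaling, and its intervals cover counting error only.

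**Figure D1:**
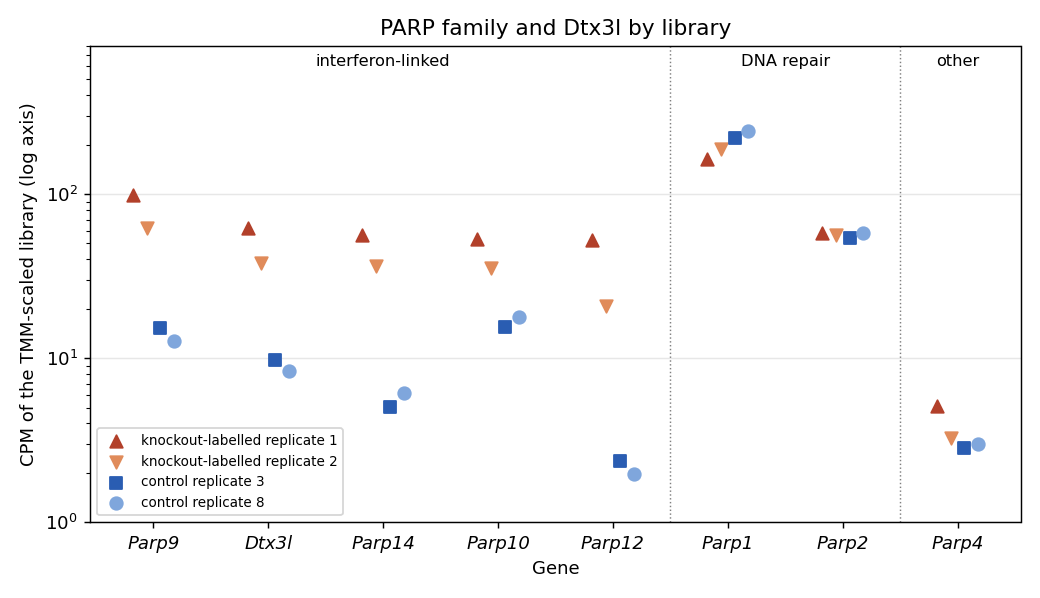
CPM of the TMM-scaled library (log axis) of the 8 measured members, with 1 point per library. For the 5 interferon-linked genes both knockout-labelled points lie above both controls, for Parp1 they lie below (164 and 189 against 219.9 and 243 CPM), and for Parp2 they overlap.

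Parp9 and Dtx3l encode the partners of that complex. Parp9 (ENSMUSG00000022906) had 99.4 and 61.9 CPM in knockout-labelled replicates 1 and 2 and 15.4 and 12.7 CPM in control replicates 3 and 8, from counts of 3048, 2389, 424 and 599. The lower knockout-labelled value was several times the higher control. The groups did not overlap, with both knockout-labelled values higher, as for 27.4% of all genes. Their means were 80.7 ± 26.5 and 14.0 ± 1.92 CPM (SD, n = 2 each), with a log2 fold change of 2.53 (SE 0.30, edgeR adjusted p = 0.0747). Dtx3l (ENSMUSG00000049502) had 62.0 and 37.8 CPM in knockout-labelled libraries and 9.75 and 8.32 CPM in the controls. It showed the same order of libraries as Parp9, with replicate 1 highest and control replicate 8 lowest. Group means of 49.9 ± 17.1 and 9.04 ± 1.01 CPM (SD, n = 2 each) gave a log2 fold change of 2.47 (SE 0.31, edgeR adjusted p = 0.0770).

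Parp9 supplied 61.6% (60.2 to 63.0) and 62.1% (60.5 to 63.6) of the counts of the pair in knockout-labelled libraries. In the controls it supplied 61.2% (57.5 to 64.7) and 60.3% (57.3 to 63.3), all with 95% Wilson intervals. The 4 intervals, which cover counting error only, overlap, and the pair's own counts per library ran from 693 to 4948. No test of the ratio between groups was run. Among 9640 genes ranked by the distance of their centred log2 CPM over the 4 libraries, Dtx3l was the nearest gene to Parp9 and Parp9 the nearest to Dtx3l, at a distance of 0.0807 against a median of 2.57 from Parp9 and 2.51 from Dtx3l. The libraries themselves are shared by every gene in such a ranking. The genes also overlap by 682 bp, with 458 bp of exon in common (9.4% of the exonic length of Parp9 and 8.0% of that of Dtx3l). The strand of the libraries is not given in the sources used here, so reads from that stretch cannot be assigned to either gene.

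Parp14 encodes a large mono-ADP-ribosyltransferase that carries macrodomains, which bind ADP-ribose. Parp14 (ENSMUSG00000034422) had 56.4 and 36.4 CPM in knockout-labelled libraries and 5.04 and 6.17 CPM in the controls. Both knockout-labelled values were well above the controls, and the controls differed little from each other. Group means of 46.4 ± 14.2 and 5.60 ± 0.798 CPM (SD, n = 2 each) gave a log2 fold change of 3.05 (SE 0.31, edgeR adjusted p = 0.0502). Parp14 ranked 14th of all genes by p. The 3 genes nearest to it in pattern over the 4 libraries were Gpt2, Prune2 and Rnf213, at distances of 0.245, 0.274 and 0.331, against a median distance of 3.08. Gpt2, the nearest, had 12.2 and 6.43 CPM in knockout-labelled libraries and 1.05 and 1.29 CPM in the controls. Prune2 had 7.24 and 5.99 CPM against 0.689 and 0.930 CPM. Rnf213, a large ubiquitin ligase, had 502 and 235 CPM in knockout-labelled libraries and 40.3 and 46.6 CPM in the controls.

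Parp12, a mono-ADP-ribosyltransferase with CCCH zinc fingers, had the largest fold change of the 8 measured members and the widest gap between knockout-labelled libraries on the log2 scale. Parp12 (ENSMUSG00000038507) had 52.7 and 20.8 CPM in knockout-labelled libraries and 2.36 and 1.96 CPM in the controls. Its means were 36.8 ± 22.6 and 2.16 ± 0.277 CPM (SD, n = 2 each), with a log2 fold change of 4.09 (SE 0.51, edgeR adjusted p = 0.0770). The groups did not overlap, with both knockout-labelled values higher, as for 27.4% of all genes. The control values rest on 65 and 93 counts. Parp10, a mono-ADP-ribosyltransferase with ubiquitin-interaction motifs, had the highest level of the 5 in the controls. Parp10 (ENSMUSG00000063268) had 53.3 and 35.4 CPM in knockout-labelled libraries and 15.4 and 17.9 CPM in the controls. Its groups did not overlap either, with means of 44.4 ± 12.7 and 16.6 ± 1.73 CPM (SD, n = 2 each), and its log2 fold change of 1.41 (SE 0.27, edgeR adjusted p = 0.198) was the smallest of the 5.

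Parp1 encodes the most abundant sensor of DNA breaks. Parp1 (ENSMUSG00000026496) had 164 and 189 CPM in knockout-labelled libraries and 219.9 and 243 CPM in the controls. The groups did not overlap, with both knockout-labelled values lower, as for 26.7% of all genes. Group means were 176 ± 18.2 and 231 ± 16.02 CPM (SD, n = 2 each). The log2 fold change of -0.39 (95% interval -0.87 to 0.09, edgeR adjusted p = 0.437) did not pass. The genes nearest to it in pattern were Naa50, Usp16 and Dctpp1, at distances of 0.0132, 0.0286 and 0.0313 against a median of 0.587. Parp2, its paralogue in break repair, was the flattest of the 8. Parp2 (ENSMUSG00000036023) had 57.7 and 56.7 CPM in knockout-labelled libraries and 54.1 and 57.9 CPM in the controls, and its groups overlapped. The log2 fold change was 0.03 (95% interval -0.40 to 0.46, edgeR adjusted p = 0.937), an interval that still allows changes of that size in either direction.

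Parp4 encodes the PARP of vault particles. Parp4 (ENSMUSG00000054509) had 5.12 and 3.27 CPM in knockout-labelled libraries and 2.83 and 2.98 CPM in the controls. Per kilobase of exon it had the lowest level of the 8 measured members, though Parp12 had fewer CPM in the controls. The groups did not overlap, with both knockout-labelled values higher, as for 27.4% of all genes, and replicate 2 lay close to the controls. The log2 fold change was 0.53 (95% interval -0.38 to 1.43, edgeR adjusted p = 0.501), and 0.17 without replicate 1.

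**Figure D2:**
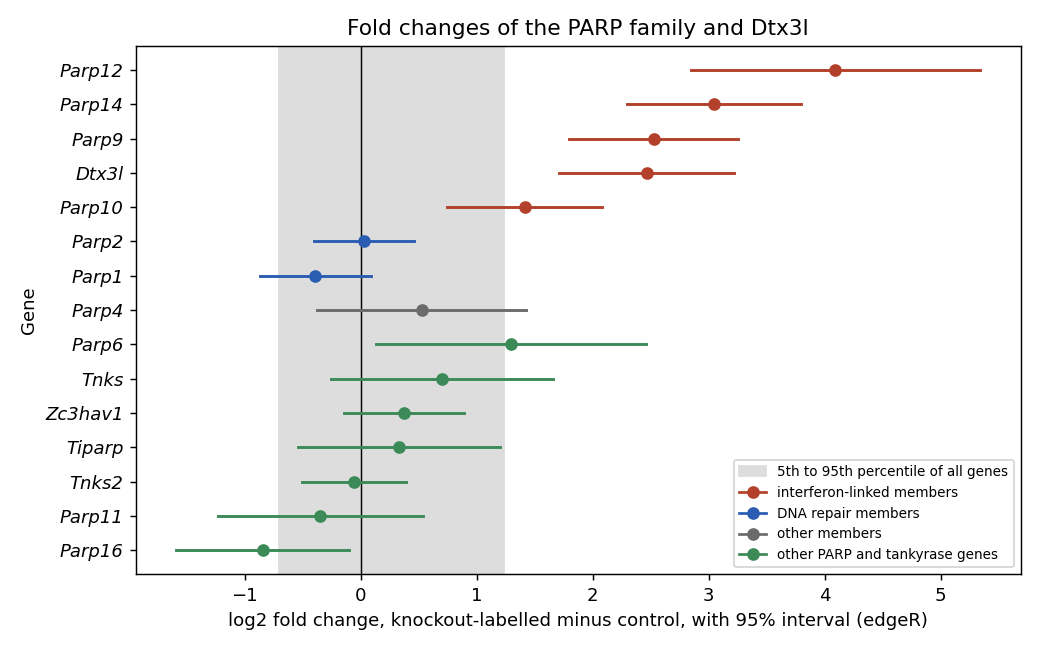
Log2 fold change, knockout-labelled minus control, with its 95% interval from edgeR, of the 8 measured members and 7 other PARP and tankyrase genes, over a grey band from the 5th to the 95th percentile of all genes (-0.70 to 1.24). The 5 interferon-linked genes lie beyond the band (1.41 to 4.09), the other members lie within it, and of the 7 other genes Parp6 (1.30) and Parp16 (-0.84) lie beyond it.

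Levels of different genes were compared as CPM per kilobase of exon. In the controls the order was Parp1 (60.1), Parp2 (31.3), Parp10 (3.89), Parp9 (2.88), Dtx3l (1.58), Parp14 (0.602), Parp12 (0.541) and Parp4 (0.444), as means in CPM per kilobase. Parp14 and Parp12 overlapped between control libraries in that order, and the other neighbours did not. In the knockout-labelled libraries the order was Parp1 (45.9), Parp2 (32.0), Parp9 (16.6), Parp10 (10.4), Parp12 (9.21), Dtx3l (8.72), Parp14 (4.99) and Parp4 (0.642). The ranges of Parp10, Parp12 and Dtx3l overlapped there, and that of Parp12 also overlapped those of Parp9 and Parp14. Even in knockout-labelled libraries each interferon-linked gene thus stayed below Parp1 and Parp2 per length.

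All 5 interferon-linked genes were above 1 CPM in the controls as well, so their rows did not depend on the knockout-labelled libraries. Their groups did not overlap in 5 of 5, where 27.4% of all genes were higher without overlap. All 5 were higher at an unadjusted p below 0.05 in edgeR's quasi-likelihood test, against 9.82% of genes higher and 2.08% lower. Their median log2 fold change was 2.53, beside -0.00077 over all genes. Members and lists were chosen with earlier results of these data known, so these counts are a description and no test of the 5. DESeq2 called all 5 higher (3.29% of genes), with adjusted p from 1.79e-16 for Parp14 to 0.000806 for Parp10, and edgeR's likelihood ratio test also called all 5 (3.09% of genes). In the authors' deposited table, 8 genes passed an adjusted p of 0.05, none of them a member, and Parp14 had the smallest member value (adjusted p = 0.0871).

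Each of the 5 differed more from the control mean in knockout-labelled replicate 1 than in replicate 2. So did 8864 of all 10716 genes. Of the 1275 genes at an unadjusted p below 0.05 in edgeR's quasi-likelihood test, 1183 did. On the log2 CPM scale the difference was 4.58 and 3.24 for Parp12 in replicates 1 and 2, 3.33 and 2.69 for Parp14, and 2.83 and 2.15 for Parp9. It was 2.77 and 2.06 for Dtx3l and 1.68 and 1.09 for Parp10. Every one of the 5 thus lay above the controls in either library alone. A fit without 1 library leaves 1 in its group, takes the spread from the other group alone and assumes that the lone library varies like it. Under that assumption, edgeR's quasi-likelihood test without replicate 1 called all 5 (1.29% of genes higher), with adjusted p from 0.000215 for Parp14 to 0.0236 for Parp10. Without replicate 2 all 5 were called too, but so were 17.3% of genes higher. Without control replicate 3 all but Parp10 were called (0.373% of genes), and without control replicate 8 only Parp14 was (adjusted p = 0.0193, 0.233% of genes).

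**Figure D3:**
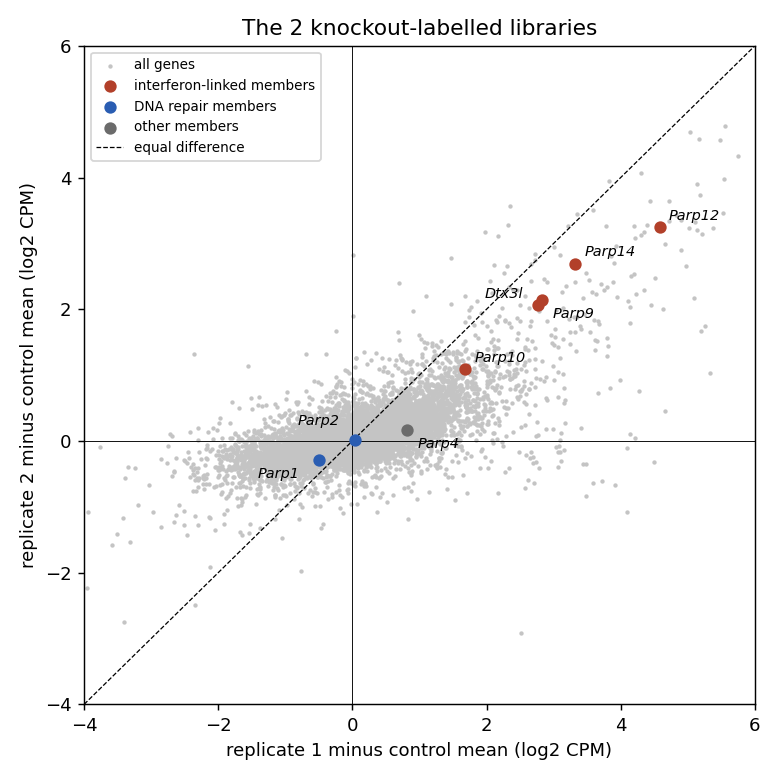
Difference from the control mean in log2 CPM, in knockout-labelled replicate 1 (x axis) and replicate 2 (y axis), for the 8 members over all genes in grey, with the dashed line at equal differences (21 genes fall outside the axes). The interferon-linked genes lie below the line and far from 0 in both libraries, from 1.68 and 1.09 for Parp10 to 4.58 and 3.24 for Parp12.

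Markers of other blood and liver cells also differed between libraries. The 7 measured neutrophil markers summed to 305 CPM in knockout-labelled replicate 1 and to 37.3 in replicate 2, against 41.1 and 45.3 CPM in the controls. The 6 megakaryocyte markers summed to 129 and 79.6 CPM against 41.7 and 67.5, and 4 endothelial markers to 24.8 and 26.6 CPM against 11.8 and 9.99. Of the megakaryocyte sums Itga2b alone gave 103 and 59.3 CPM against 19.8 and 51.0 CPM, and Gp9 went the other way (log2 fold change -0.41). Of the 10 measured macrophage markers, 6 were lower at an unadjusted p below 0.05 in edgeR's quasi-likelihood test, beside 2.08% of all genes. Vcam1, for example, had 0.555 and 0.492 CPM in knockout-labelled libraries and 5.11 and 1.80 CPM in the controls. The macrophage list summed to 51.7 and 28.1 CPM against 62.1 and 36.7, in which Lyz2 alone gave 43.1 CPM in replicate 1. The 8 hepatoblast markers summed to 61.7 and 71.9 CPM against 129 and 52.3 CPM. No measured marker had 0 counts in any library, and none of the 6 lymphoid markers had a row. The part of the other cell types in these values was not tested, and fewer cells of a type cannot be told apart from less RNA per cell.

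Parp14, Dtx3l and Parp9 lie close together on chromosome 16 of NCBIM37. Parp14 runs from 35832960 to 35871630 and Dtx3l from 35926597 to 35939237, both on the minus strand, and Parp9 from 35938556 to 35972691 on the plus strand. The 5′ ends of Dtx3l and Parp9 overlap head to head, and 54966 bp separate Parp14 from Dtx3l, a stretch that holds 1 annotated gene without a row, Gm10237. Of the genes within 250 kb of this stretch, 8 others had a row, a window that was chosen after the members' values were seen. Kpna1, an importin gene and the nearest with a row beyond Parp9, had 203 and 183 CPM in knockout-labelled libraries and 182 and 180.4 CPM in the controls, and Hspbap1, the nearest beyond Parp14, had 59.8 and 58.0 CPM against 62.5 and 52.6 CPM. None of the 8 was called in edgeR's quasi-likelihood test. In that test 2 of them, Fam162a (log2 fold change 0.67) and Dirc2 (0.58), were higher at an unadjusted p below 0.05, beside 9.82% of all genes. The largest values among the 8 were those of Stfa2l1 (1.88) and Gm5483 (1.84), whose groups overlapped. Stfa2l1 had 11.8 CPM in knockout-labelled replicate 1 and 1.40 in replicate 2, against 1.85 and 1.73 CPM in the controls. As with the summed neutrophil markers, replicate 1 was the highest of the 4 libraries and replicate 2 the lowest. The other members lie elsewhere, Parp12 on chromosome 6 (39036409 to 39068348), Parp10 on chromosome 15 (76061604 to 76073871), Parp1 on chromosome 1 (182499086 to 182531384), and Parp2 (51427621 to 51440975) and Parp4 (57194456 to 57278631) on chromosome 14.

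**Figure D4:**
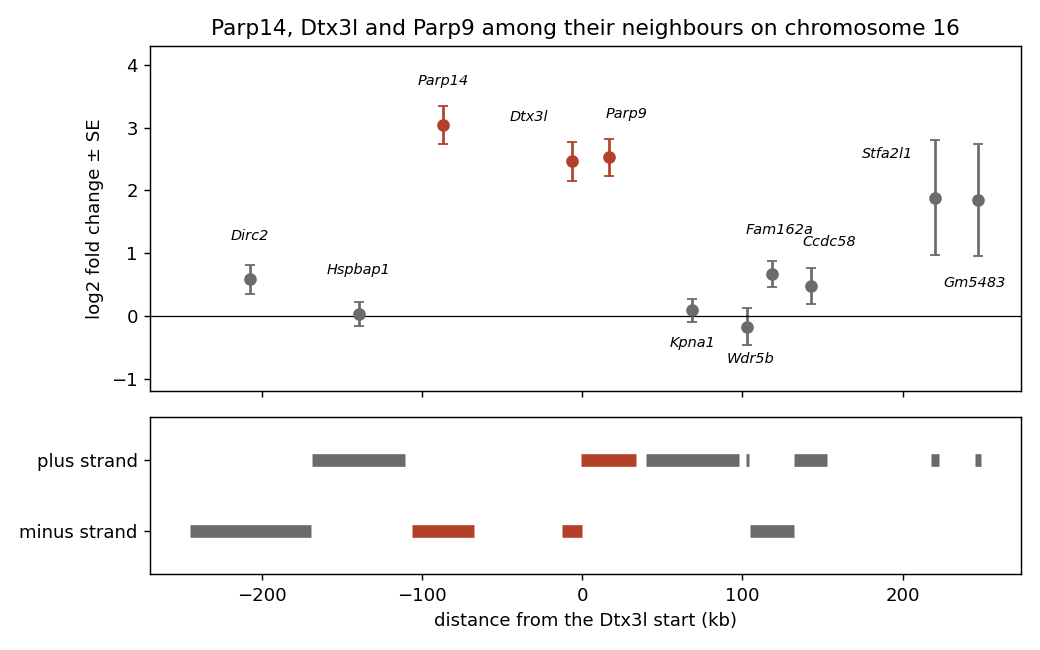
Log2 fold change with its SE (top) and extent by strand (bottom) of the genes with a row around Parp14, Dtx3l and Parp9 (red), by distance from the Dtx3l start in kb. The 3 red genes stand at 2.47 to 3.05, and the nearest other genes with a row, Hspbap1 and Kpna1, at 0.03 and 0.09.

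Promoter windows from RefSeq on GRCm38.p6, each 250 bases before to 50 after a gene's start, were matched by symbol for 7 of the 10 listed genes. Parp9, Parp14 and Parp10 had no entry. Interferon acts through the factor complex ISGF3, which binds the interferon-stimulated response element. The core of that element was searched as GAAA, any 2 bases, then GAAA again, on both strands. The windows of Dtx3l and Parp12, the interferon-linked genes that had one, and of Parp4, the single member with a match, are shown 5′ to 3′ on the strand of the gene, with matched bases in capitals.
Dtx3l, chr16:35938978-35939277, minus strand: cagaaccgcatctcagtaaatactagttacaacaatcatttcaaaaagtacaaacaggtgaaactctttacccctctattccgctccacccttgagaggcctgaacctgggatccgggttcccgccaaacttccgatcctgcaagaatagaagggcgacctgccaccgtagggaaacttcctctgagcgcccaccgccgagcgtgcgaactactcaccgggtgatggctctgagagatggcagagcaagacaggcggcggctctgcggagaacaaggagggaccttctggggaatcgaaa
Parp12, chr6:39118300-39118599, minus strand: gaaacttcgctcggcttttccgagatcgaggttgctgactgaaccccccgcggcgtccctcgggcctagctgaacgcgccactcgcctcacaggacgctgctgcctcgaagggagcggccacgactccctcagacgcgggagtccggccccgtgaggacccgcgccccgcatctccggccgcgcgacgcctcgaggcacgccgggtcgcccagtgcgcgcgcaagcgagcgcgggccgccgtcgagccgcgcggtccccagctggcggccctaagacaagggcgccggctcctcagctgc
Parp4, chr14:56575369-56575668, plus strand: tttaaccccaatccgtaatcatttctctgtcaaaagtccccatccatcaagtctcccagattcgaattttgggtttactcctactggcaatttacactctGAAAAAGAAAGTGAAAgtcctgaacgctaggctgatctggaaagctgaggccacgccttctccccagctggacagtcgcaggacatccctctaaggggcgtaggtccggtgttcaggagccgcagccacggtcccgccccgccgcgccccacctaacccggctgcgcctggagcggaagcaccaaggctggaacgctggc

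The core was absent from the windows of Dtx3l and Parp12, which says only that these letters are not within these 300 bases. Parp4, whose groups lay close together, had 2 overlapping matches, the first beginning 150 bases before its start. The core occurred in 1 of the 7 member windows and in 3.44% of all 32851 promoter windows. Of the 9244 windows whose gene had a row in the gene table, 3% held it. A second planned motif, the gamma-activated sequence, was searched on both strands as TTCC, any base, then GGAA. It occurred in 0 of the 7 member windows and in 1.15% of all promoter windows. A match is a description of the sequence and does not show binding.

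The other PARP and tankyrase genes numbered 7, with 0 called in either direction in edgeR's quasi-likelihood test and a median log2 fold change of 0.33. Parp16, the PARP of the endoplasmic reticulum, had 10.4 and 15.4 CPM in knockout-labelled libraries and 27.1 and 19.3 CPM in the controls (log2 fold change -0.84, SE 0.30, edgeR adjusted p = 0.408). Parp6 had 20.9 and 7.96 CPM against 5.40 and 6.27 CPM (1.30, SE 0.47, edgeR adjusted p = 0.413). Zc3hav1, the antiviral RNA-binding protein ZAP and a catalytically inactive PARP, had 289 and 263 CPM against 237 and 189 CPM, with a log2 fold change of 0.37. It was thus abundant in the controls already, unlike the 5 interferon-linked members. Tnks, which encodes tankyrase, had 115 and 49.99 CPM against 48.5 and 53.1 CPM, high in replicate 1 alone. Without replicate 2, 2 of the 7 were called higher and 2 lower, in a fit that called 17.3% of all genes higher and 15.3% lower.

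Genes that act before or after ADP-ribosylation had 0 calls in edgeR's quasi-likelihood test. The 10 measured genes of ADP-ribose removal had a median log2 fold change of -0.17 and a range from -0.44 to -0.00011. Adprhl2, the hydrolase ARH3, had 9.95 and 14.0 CPM in knockout-labelled libraries and 15.8 and 16.7 CPM in the controls (-0.44). AI314976, known today as Oard1 and encoding a terminal ADP-ribose hydrolase, had a log2 fold change of -0.29, and Parg, the main glycohydrolase of poly(ADP-ribose), had 28.2 and 29.8 CPM against 33.1 and 35.4 CPM (-0.24). Of the 17 genes of single-strand break and base excision repair, the median was -0.03. Aplf, a repair scaffold that binds poly(ADP-ribose), had 93.2 and 71.9 CPM against 49.6 and 46.7 CPM (0.78, SE 0.21, edgeR adjusted p = 0.325), and Aptx, which trims aborted ligation ends, had a log2 fold change of 0.44. The 8 NAD supply genes had a median of -0.03. Nampt, the rate-limiting enzyme of NAD salvage, had 67.9 and 34.3 CPM against 21.9 and 30.4 CPM (0.96, SE 0.37, edgeR adjusted p = 0.419), and the NAD kinase gene Nadk had a log2 fold change of -0.36. Of the Deltex ligases related to Dtx3l, Dtx3 had 148 and 73.5 CPM against 39.4 and 52.3 CPM (1.27, SE 0.36, edgeR adjusted p = 0.354), and Dtx2 had a log2 fold change of 0.09. Without knockout-labelled replicate 2, 1 of the ADP-ribose removal genes was called lower, 1 of the repair genes was called higher and 2 lower, 1 of the NAD supply genes was called in each direction, and 1 Deltex gene was called higher, again beside 17.3% and 15.3% of all genes.

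The genes that carry the interferon signal to transcription, upstream of the interferon-linked PARPs, numbered 8, with a median log2 fold change of 1.16. In edgeR's quasi-likelihood test 0 were called and 6 were higher at an unadjusted p below 0.05, beside 9.82% of all genes. With 1 library left out, from 1 to 6 were called, the 6 without knockout-labelled replicate 2, where 17.3% of all genes were called higher. Irf7, a transcription factor of the interferon response, had 116 and 51.3 CPM in knockout-labelled libraries and 5.22 and 6.49 CPM in the controls (3.83, SE 0.44, edgeR adjusted p = 0.0747). Irf9, the DNA-binding subunit of ISGF3, had 92.1 and 106 CPM against 39.9 and 34.01 CPM (1.42, SE 0.20, edgeR adjusted p = 0.105). Irf9 was higher in replicate 2 than in replicate 1, the reverse of the order of the interferon-linked PARPs. Stat2, another ISGF3 subunit, had 57.8 and 29.0 CPM against 17.0 and 16.6 CPM (1.37). The receptor gene Ifnar1 (-0.14) and the kinase gene Tyk2 (0.04) had overlapping groups.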

How the data were processed

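RNA from YFP-sorted fetal liver cells was sequenced in 4 libraries. The authors deposited raw counts per gene, normalised values (CPM of the TMM-scaled library, within 0.0494% of those recomputed for genes above 10 CPM) and a comparison table with a log2 fold change, p-value and adjusted p-value per gene, whose sign (wild type minus knockout) was turned here. The submitters' processing notes list HTSeq, edgeR, TopHat2 2.0.8, limma, Trimmomatic 0.30, Cufflinks and Bowtie2 2.1.0.0 among their tools, and the builds mm9 and NCBIM37, with no roles. All 10716 genes exceeded 1 CPM in at least 2 libraries.

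Counts were fitted in edgeR 4.0.16 (R 4.3.3) with filterByExpr (0 genes removed), TMM, glmQLFit (robust=TRUE, legacy=TRUE) then a quasi-likelihood F test (two-sided) over all genes, knockout-labelled against control, with Benjamini-Hochberg adjustment, a threshold of 0.05 and 2 residual degrees of freedom. The SE is the absolute log2 fold change over the square root of F, and intervals are at 95%. Log2 CPM used a prior count of 2. Alternatives were DESeq2 1.42.0, limma-voom (limma 3.58.1), the likelihood ratio test, scaling, filters, other fit options and leaving out each library. The fit was also run on simulated counts, with a ceiling on the spread between libraries and the same mean in both knockout libraries. That run does not cover the difference between knockout-labelled replicates seen here.

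Members and lists were chosen with earlier results of these data known. After the files were read, 2 unidentified names were dropped from the ADP-ribose removal list, and older symbols were matched (AI314976 for Oard1, Pnp1 for Pnp). The text names every member, at least 2 genes with the smallest p of each pathway list, and the genes nearest in pattern that averaged 1 or more in log2 CPM. Other list genes were chosen after their values were seen. Positions and exon lengths came from GENCODE vM1 on NCBIM37.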

Additional observations from a re-analysis of the deposited data

How the results depend on the processing

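No paired analysis was run, and the replicate numbers do not link a knockout-labelled library to a control. The log2 fold changes of the 8 members kept their direction under every alternative run, except Parp2, which was 0.03 in the reported fit, -0.039 without scaling beyond the total count, and between -0.018 (without control replicate 3) and 0.070 (without control replicate 8) with a library left out. The 11 genes called higher became 85 without scaling, 353 with DESeq2 and 331 in the likelihood ratio test, and those called lower, 0 in the reported fit, became 2, 21 and 18. Of the 5 interferon-linked members, 0 became 4 without scaling, 5 with DESeq2 and 5 in the likelihood ratio test, and 1 (Parp14) each with legacy=FALSE, with robust=FALSE and with a filter of at least 1 CPM in every library of a group. With limma-voom it was 0, and the adjusted p of Parp14 ran from 1.79e-16 (DESeq2) to 0.0871 (limma-voom). Of the interferon signalling genes, 2 were called without scaling, 5 with DESeq2 and 5 in the likelihood ratio test, and of the Deltex genes 1 with each of the last 2. When each library was left out in turn, which leaves 1 library in its group that is assumed to vary like the other group, genes called higher ran from 25 to 1851 and lower from 1 to 1641, interferon-linked members called from 1 to 5, and interferon signalling genes from 1 to 6. Over the same fits, calls ran from 0 to 1 for higher Deltex genes, from 0 to 2 in either direction for other PARP and tankyrase genes, from 0 to 1 for lower ADP-ribose removal genes, from 0 to 1 higher and 0 to 2 lower for break and base excision repair, and from 0 to 1 in either direction for NAD supply. The highest counts came without knockout-labelled replicate 2, and for the interferon-linked members also without replicate 1. DNA repair members had 0 calls in every fit run. The cause of these changes was not tested. Parp4, with 78 to 157 counts a library, had the fewest counts of the members when summed over the libraries.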
